A study of Mus musculus with 20 samples.

Results

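Hair follicle stem and lineage regulators were followed across mouse epidermis and cutaneous squamous cell carcinoma (cSCC) in which Wwox, p53 or both had been deleted. The 10 genes were chosen by name, as receptors and transcription factors of hair follicle stem cells and lineages, out of 51123 gene rows. Earlier results of these data were known at that point. They were Lhx2 (ENSMUSG00000000247), Sox9 (ENSMUSG00000000567), Lgr5 (ENSMUSG00000020140), Lgr6 (ENSMUSG00000042793), Cd34 (ENSMUSG00000016494), Hoxc13 (ENSMUSG00000001655), Msx2 (ENSMUSG00000021469), Dlx3 (ENSMUSG00000001510), Foxn1 (ENSMUSG00000002057) and Gata3 (ENSMUSG00000015619). All 10 passed the low-count filter of every comparison, and the lowest count of any of them in any library was 11.

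RNA was sequenced in bulk from 20 libraries of skin cells sorted for the tdTomato reporter, in 7 groups. Young epidermis, from mice 100 to 120 days old, was wild type (WT young, n = 3), deleted for Wwox (WKO young, K14cre with floxed Wwox, n = 3), deleted for p53 (PKO young, K14cre with floxed p53, n = 3) or deleted for both (DKO young, n = 3). Old WT epidermis came from mice of at least 400 days (n = 2). Carcinomas that arose spontaneously came from PKO (PKO cSCC, n = 3) and DKO mice (DKO cSCC, n = 3), and the labels give neither an age for those mice nor the Cre and reporter alleles of the wild-type mice. K14cre expresses Cre recombinase in keratinocytes of the basal layer and the outer root sheath, so the deletion is not limited to the hair follicle. No treatment is named.

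The hair follicle is renewed from stem cells of the bulge, a niche in its outer root sheath, and from progenitors of the isthmus above it. During the growth phase, cells of the hair matrix at the base divide and form the hair shaft and the inner root sheath around it. Lhx2 and Sox9 are transcription factors of the stem cells and the outer root sheath. Lgr5 and Lgr6 are receptors for R-spondins, which strengthen Wnt signalling; in mouse skin they mark the lower bulge and the isthmus. Cd34 is a surface sialomucin used to sort mouse bulge cells, and endothelial cells and dermal fibroblasts carry it as well. Hoxc13, Msx2 and Dlx3 are homeodomain factors of the matrix and the forming shaft. Foxn1 is the forkhead factor mutated in nude mice, and Gata3 is a zinc finger factor of the inner root sheath and the epidermis that T cells also need.

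Library totals ranged from 11930153 to 17199262 counts, and levels are CPM, counts scaled to a common library size after TMM. The targeted genes went against the label in 4 libraries, 2 of them in part. Wwox stood at 7.11 CPM in the library labelled DKO young 3, against 0.918 and 0.928 in DKO young 1 and 2, and Trp53 stood at 45.9 CPM in the library labelled DKO cSCC 3, against 2.68 and 2.78 in DKO cSCC 1 and 2. Trp53 was also 20.5 CPM in the library labelled DKO young 3. It remained at 21.4 and 20.4 CPM in the libraries labelled PKO young 2 and 3, between the 6.03 of PKO young 1 and the 31.0 to 40.1 of WT young, so that statements on PKO young rest on 2 libraries with partly kept Trp53 RNA. All 6 basal keratinocyte markers had counts in every library, but their summed level was only 1228 to 2067 CPM in WT young and 2294 in the library labelled PKO young 3, against 7418 to 15374 in WKO and DKO young and 8861 to 28035 in the tumours. The sum of 12 T cell markers was between 2474 and 3270.2 CPM in WT young and reached 4674 in the library labelled PKO young 3. Elsewhere in young epidermis their sums were 66.0 to 1237 CPM, with no marker at 0, and in the tumours they were 24.1 to 142, with at most 1 at 0. Erythrocyte markers had sums of 829 to 3487 CPM in WT young and at most 233 elsewhere. Melanocyte markers had sums of 318 to 439 CPM in WT young, 517 in the library labelled DKO cSCC 3 and at most 157 elsewhere. In a bulk sample, fewer cells of a type and less RNA per cell cannot be told apart.

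In young epidermis, Sox9, Foxn1 and Gata3 rose in both WKO and DKO, and Lgr6 rose in WKO, relative to the bulk of genes. Per basal keratinocyte RNA the fitted changes of Foxn1, Gata3 and Lgr6, and of Sox9 in WKO, were negative, and that of Sox9 in DKO was near 0. That scaling moved the median log2 fold change of all genes by -2.76 in WKO and -2.45 in DKO. Relative to the bulk of genes, Msx2 fell in both WKO and DKO, and Hoxc13 and Dlx3 fell in DKO. In carcinomas Gata3 fell against young epidermis of the same genotype, and Lhx2 and Lgr5 ranged over more than an order of magnitude between tumours of one genotype. The edgeR quasi-likelihood test with Benjamini-Hochberg adjustment called 5 of the 10 genes in WKO against WT young, where 21.4% of all 16627 genes were called. It called 6 of 10 in DKO against WT young, where 27.8% of all genes were called. By direction, 4 members were higher in WKO (13.1% of all genes) and 1 was lower (8.34%), and in DKO 3 were higher (15.8%) and 3 lower (12.1%).

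Groups whose libraries do not overlap were common in this series, and the members are read against that. No overlap was seen for 4 members in WKO, 2 in PKO and 6 in DKO against WT young, where 51.5%, 28.1% and 48.3% of all genes did not overlap, and for 5 in old against young WT (40.4%). It was seen for 1 member in DKO against PKO young (15.4%), 2 in PKO cSCC and 5 in DKO cSCC against old WT (45% and 34.7%), and 1 in DKO against PKO cSCC (14%). Against young epidermis of the same genotype it was seen for 3 members in PKO cSCC (25%) and 5 in DKO cSCC (30.3%).

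**Figure D1:**
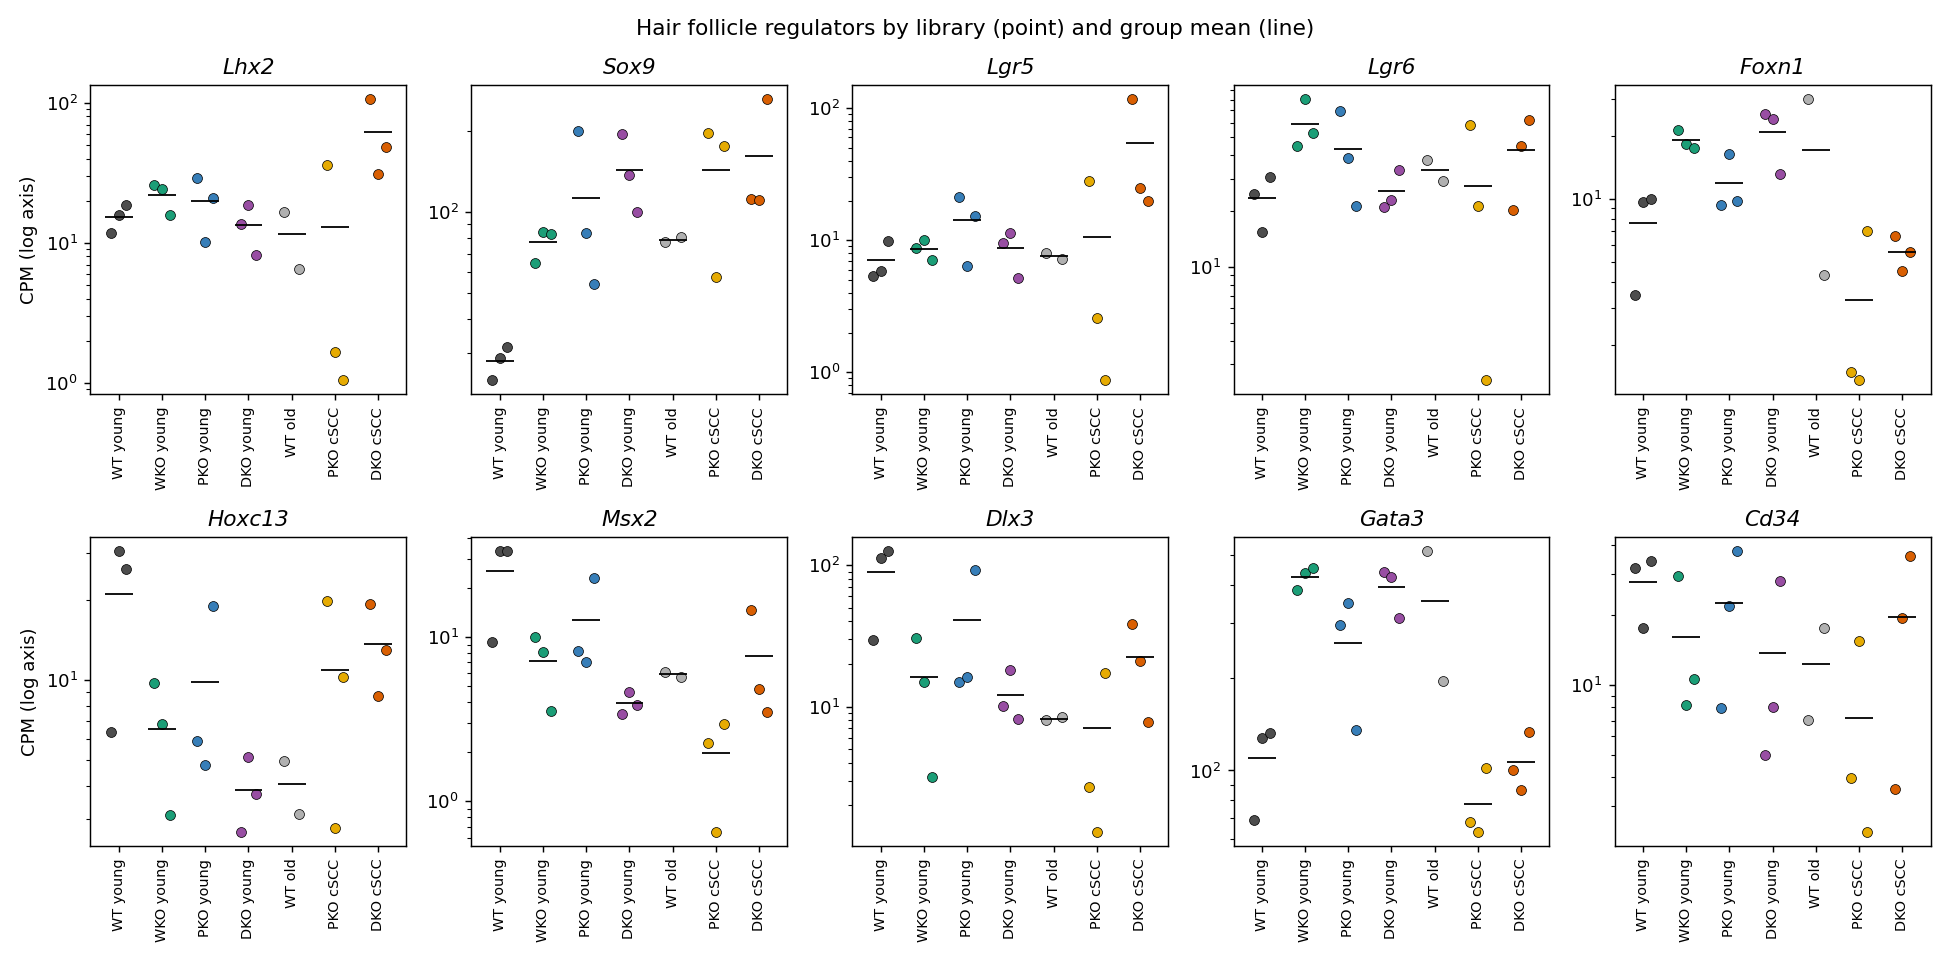
Level of each of the 10 genes in CPM (log axis) by group, with a point for each library and a line at the group mean. Gata3 libraries of WKO young sit between 384 and 452, above the 69.2 to 133 of WT young, and Lhx2 spans 1.05 to 36.3 within PKO cSCC.

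Lhx2, a LIM homeodomain factor that maintains hair follicle stem cells in mice, stood at 11.7, 15.8 and 18.6 CPM in WT young and at 25.7, 24.1 and 15.9 in WKO young. It was 28.9, 10.1 and 21.0 CPM in PKO young, and 13.6, 18.7 and 8.26 in DKO young, the last being the library labelled DKO young 3. Old WT held 16.7 and 6.51 CPM. These 5 groups of epidermis overlapped. In PKO cSCC it was 36.3, 1.65 and 1.05 CPM, and in DKO cSCC 107, 31.2 and 48.6, the last being the library labelled DKO cSCC 3. All DKO tumours lay above all epidermis libraries, but PKO cSCC 1 lay within the DKO range, and the remaining PKO tumours lay below every other library. By mean, DKO cSCC came first (62.1 ± 39.4, SD, n = 3) and its libraries lay above all of the next group, WKO young (21.9 ± 5.26, n = 3), whereas no other neighbouring groups separated. Lhx2 was not called in DKO cSCC against DKO young, old WT or PKO cSCC (edgeR adjusted p = 0.161, 0.459 and 0.651). Per 1000 CPM of basal keratinocyte markers the order changed. Lhx2 was then 1.26 to 5.92 in DKO cSCC, 9.01 to 10.03 in WT young and 0.917 to 2.11 in DKO young.

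Lgr5, the R-spondin receptor that marks cycling stem cells of the lower follicle, was likewise highest in DKO cSCC 1 and lowest in PKO cSCC 3 and 2. It was 28.3, 2.60 and 0.872 CPM in PKO cSCC and 117, 25.1 and, in the library labelled DKO cSCC 3, 19.7 in DKO cSCC. In epidermis it was 5.35, 5.84 and 9.94 CPM in WT young, 8.79, 9.97 and 7.10 in WKO young, and 7.98 and 7.18 in old WT. PKO young held 21.2, 6.43 and 15.3 CPM, and DKO young held 9.51, 11.4 and, in the library labelled DKO young 3, 5.19. The groups of epidermis overlapped, and PKO cSCC 1 again lay inside the range of the DKO tumours. For DKO against PKO cSCC the log2 fold change of Lgr5 was 2.35 ± 1.24 (SE; edgeR adjusted p = 0.64). Leaving out a tumour of either genotype moved its size: the log2 fold change was 4.99 without PKO cSCC 1 and 1.03 without DKO cSCC 1.

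Lhx2 and Lgr5 were each the nearest to the other among 10512 genes of at least 5 CPM on average. The root mean square difference of their log2 CPM, each centred on its own mean over the 20 libraries, was 0.53, while the SD over libraries was 1.40 for Lhx2 and 1.32 for Lgr5. The next nearest gene stood at 0.78 for Lhx2 (Tspan18) and at 0.76 for Lgr5 (Fzd2, a Wnt receptor). The libraries share their tumours and their cell mixture, so the closeness is a description of these 20 libraries.

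**Figure D2:**
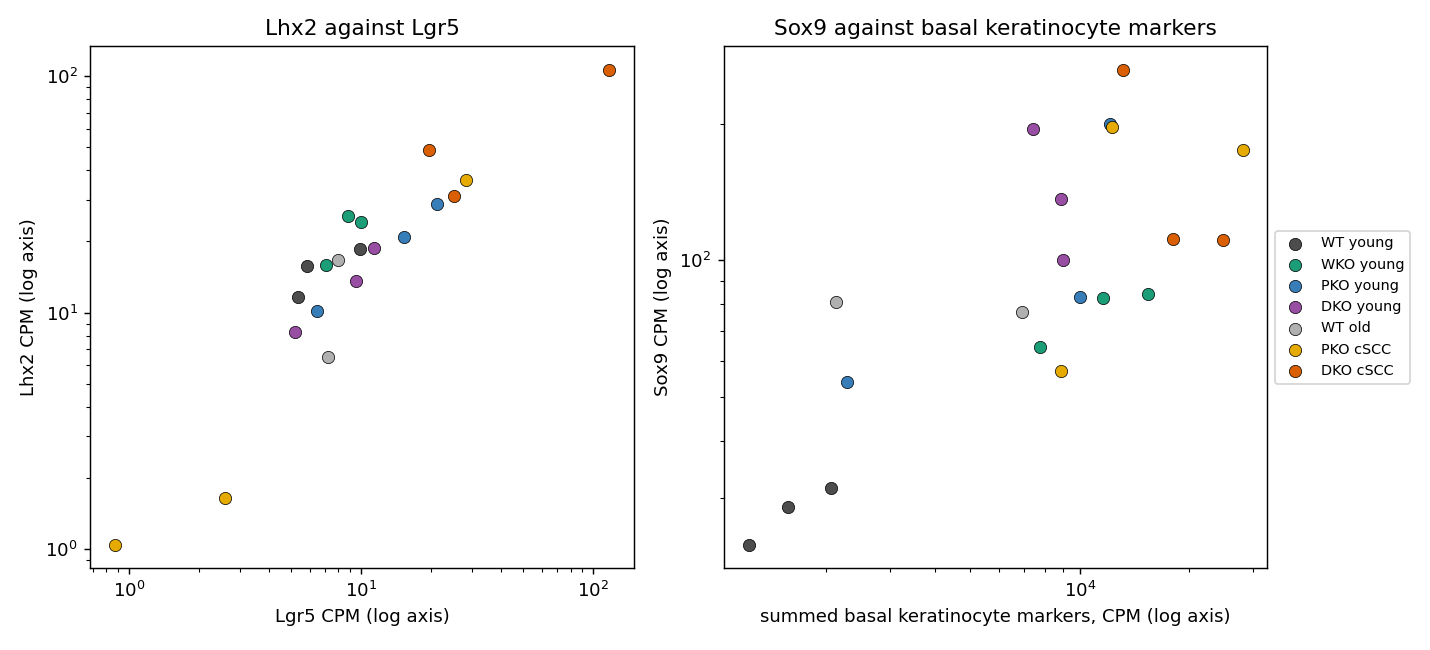
Left, Lhx2 against Lgr5, and right, Sox9 against the summed 6 basal keratinocyte markers, in CPM on log axes, with a point for each of 20 libraries coloured by group. Lhx2 and Lgr5 rank the tumours alike at both ends, and the WT young libraries (1228 to 2067 CPM of markers) have the lowest Sox9.

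Sox9, the HMG-box factor of the outer root sheath and of bulge specification, was 23.7, 28.7 and 31.6 CPM in WT young, the lowest libraries of the series. It was 64.5, 84.2 and 82.7 CPM in WKO young and 199.6, 83.2 and 54.0 in PKO young. It was 194 and 137 CPM in DKO young 1 and 2 and 100.3 in the library labelled DKO young 3. WT young overlapped with none of the other 3 young groups. Sox9 rose by a log2 fold change of 1.45 ± 0.42 (SE) in WKO (2.72-fold; edgeR adjusted p = 0.0374) and of 2.38 ± 0.44 in DKO (5.21-fold; adjusted p = 0.00713). In PKO against WT young, where 0 of 10 members were called, Sox9 had the smallest p, with a log2 fold change of 1.98 ± 0.43 (edgeR adjusted p = 0.0539). The background there was 1 gene, or 0.00601% of those tested. At an unadjusted p under 0.05 there were 3 members (Sox9, Lgr5 and Gata3) and 25.1% of all genes, and DESeq2 called 2 members (Sox9 and Gata3) and 14% of all genes. Without the library labelled PKO young 3 edgeR called Sox9 at a log2 fold change of 2.36 (adjusted p = 0.00245), together with 2998 of 17193 genes. With PKO young 1 as the only library of its group the log2 fold change was 2.84. The WKO call ended without WT young 1, 2 or 3 or WKO young 2 or 3 (adjusted p = 0.0688 to 0.105), whereas the DKO call held in each of the 6 fits that left out a library, up to an adjusted p of 0.0303. In the fits where the WKO call ended, 893 to 2423 genes were called in all, against 3563 with every library.

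By mean, the groups higher in Sox9 also held more basal keratinocyte RNA than WT young, though the libraries did not rank alike. DKO young 1 and WKO young 1 had sums of 7418 and 7746 CPM with Sox9 at 194 and 64.5. Old WT 2 had a sum of 2133 CPM, close to the highest WT young sum of 2067, with Sox9 at 80.9. The part of keratinocyte content in the Sox9 levels was not tested. Per 1000 CPM of basal keratinocyte markers, the Sox9 level was 17.6 ± 2.09 CPM (SD, n = 3) for WT young, 6.98 ± 1.43 in WKO young, 16.1 ± 7.64 in PKO young and 17.6 ± 7.74 in DKO young. It was 11.1 in old WT 1 and 37.9 in old WT 2, 9.57 ± 5.60 in PKO cSCC and 10.2 ± 8.51 in DKO cSCC. Scaling the counts to those 6 markers moved the median of all genes by -2.76 in WKO, -1.61 in PKO and -2.45 in DKO on the log2 scale. On that scale the log2 fold change of Sox9 was -1.34 in WKO (edgeR adjusted p = 0.037), -0.13 in PKO and -0.0020 in DKO. Of 16627 genes, 14396 were called there in WKO, 0 in PKO and 13350 in DKO. With the T cell markers as a covariate, no member was called in WKO or DKO, and of all genes 0 and 1 were called. Sox9 was 77.0 and 80.9 CPM in old WT, above all WT young libraries. It was 196, 57.1 and 175 CPM in PKO cSCC and 111, 111 and, in the library labelled DKO cSCC 3, 263 in DKO cSCC. The tumours overlapped each other and young epidermis of the same genotype.

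Lgr6, the R-spondin receptor of the isthmus, was 24.6, 15.4 and 30.7 CPM in WT young and 44.9, 80.6 and 52.7 in WKO young, and these groups did not overlap. It rose by a log2 fold change of 1.31 ± 0.42 in WKO (2.49-fold; edgeR adjusted p = 0.0499). PKO young held 69.6, 38.8 and 21.3 CPM, and DKO young 21.1, 22.8 and, in the library labelled DKO young 3, 33.1, both overlapping WT young. The WKO call was at the edge of the threshold and ended without WT young 1, 2 or 3 or WKO young 2 or 3 (adjusted p = 0.0616 to 0.168). All genes called in those fits were 893 to 2423, against 3563 with every library. Scaled to basal keratinocyte markers the log2 fold change was -1.52 (edgeR adjusted p = 0.0184). On that scale 14396 of 16627 genes were called and the median of all genes moved by -2.76, so the fall was not particular to Lgr6.

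Whether Wwox deletion moved a gene differently with and without p53 deletion was tested as a difference of differences in young epidermis. Lgr6 had the smallest p of the 10, with a difference of -2.02 ± 0.60 (edgeR adjusted p = 0.126), followed by Gata3 with -1.30 ± 0.50 (adjusted p = 0.185). edgeR called 0 of 10 members and 0 of 16627 genes (0%), 2 members and 3382 genes (20.3%) had an unadjusted p under 0.05, and DESeq2 called 1326 genes, among them Lgr6 (adjusted p = 0.0303). Without the library labelled PKO young 3, edgeR called Lgr6 at -2.39 (adjusted p = 0.0272) and Gata3 at -1.66 (adjusted p = 0.0294), together with 1199 of 17193 genes. Lgr6 held 37.7 and 29.3 CPM in old WT. It was 58.0, 21.4 and 2.44 CPM in PKO cSCC and 20.4, 45.05 and, in the library labelled DKO cSCC 3, 62.1 in DKO cSCC, so that the tumour groups overlapped.

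Cd34 did not pass the test in any of the 12 comparisons. It was 31.9, 17.6 and 34.1 CPM in WT young, 29.3, 8.22 and 10.6 in WKO young, and 7.92, 21.9 and 37.9 in PKO young. DKO young held 4.98, 8.07 and, in the library labelled DKO young 3, 28.0 CPM. In young epidermis the libraries high in Cd34 were high in the 8 fibroblast markers. Their sum was between 726 and 1469 CPM in WT young, 1610.1 in WKO young 1, 2394 and 2008 in the libraries labelled PKO young 2 and 3 and 2680 in the library labelled DKO young 3. They summed to 15.4 to 125 CPM in the other WKO, PKO and DKO young libraries, with up to 2 of 8 at 0. Old WT held 7.07 and 17.7 CPM of Cd34, with fibroblast sums of 37.1 and 511. In tumours Cd34 was 3.96, 15.4 and 2.33 CPM in PKO cSCC and 3.55, 19.4 and 35.8 in DKO cSCC. The fibroblast sums did not follow it in the DKO tumours, at 788, 890.1 and 471 CPM, while they were 292, 956 and 93.8 in PKO cSCC. The last Cd34 value belongs to the library labelled DKO cSCC 3, whose endothelial and mural markers summed to 637 CPM against 16.98 to 165 in the other tumours. The part of these cells in the Cd34 levels was not tested.

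Hoxc13, Msx2 and Dlx3, the homeodomain factors of the hair matrix, were high in the same 3 young libraries, WT young 2 and 3 and the library labelled PKO young 3. Hoxc13, which activates hair keratin genes, was 6.39, 30.7 and 26.3 CPM in WT young and 5.91, 4.78 and 19.0 in PKO young. Msx2, needed for hair shaft differentiation in mice, was 9.37, 33.2 and 33.5 CPM in WT young and 8.17, 7.09 and 22.8 in PKO young. Dlx3, needed for shaft and inner root sheath formation in mice, was 29.4, 113 and 126 CPM in WT young and 15.02, 16.2 and 91.8 in PKO young. WT young 1 lay apart from the other WT young libraries for all 3 genes. The 9 inner root sheath genes, keratins and trichohyalin among them, summed to 1658, 1174 and 1436 CPM in the 3 high libraries and to 455 in WT young 1. In the other young libraries they summed to 59.8 to 592 CPM. The hair shaft keratins summed to 170.0, 77.0 and 77.7 CPM in the high libraries and to at most 37.6 in the other young ones. Dermal papilla markers stood at 107, 155 and 83.6 CPM in the high libraries and at 86.7 in WT young 1, and in all other young libraries at 1.25 to 51.2. The part of these cells in the levels of the 3 genes was not tested.

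WKO and DKO young lay below the 3 high libraries for all 3 genes, as did WT young 1, PKO young 1 and the library labelled PKO young 2. Hoxc13 was 9.73, 6.83 and 3.11 CPM in WKO young and 2.69, 5.14 and, in the library labelled DKO young 3, 3.75 in DKO young. Msx2 was 9.93, 8.08 and 3.55 CPM in WKO young and 3.41, 4.64 and, in the library labelled DKO young 3, 3.84 in DKO young. Dlx3 was 30.4, 14.8 and 3.19 CPM in WKO young and 10.1, 18.2 and, in the library labelled DKO young 3, 8.17 in DKO young. DKO young lay below all WT young libraries for each of the 3 genes, whereas WKO young overlapped with WT young 1 for each. In DKO, Msx2 fell by 2.65 ± 0.60 on the log2 scale (6.29-fold lower; edgeR adjusted p = 0.0122), Hoxc13 fell by 2.43 ± 0.69 (5.38-fold lower; adjusted p = 0.0274) and Dlx3 fell by 2.86 ± 0.93 (7.24-fold lower; adjusted p = 0.043). In WKO, Msx2 fell by 1.84 ± 0.58 (3.57-fold lower; edgeR adjusted p = 0.0458).

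These calls changed when single libraries were left out, as did the calls over all genes. Over all genes, 4629 were called in DKO and 3563 in WKO with every library. With a library left out, 1609 to 4045 were called in DKO and 893 to 3513 in WKO. The Hoxc13 and Dlx3 calls in DKO each ended without WT young 2 or 3 or any DKO young library (adjusted p = 0.0569 to 0.104 and 0.0763 to 0.136), the one labelled DKO young 3 included. The Msx2 call in DKO ended without DKO young 1 (adjusted p = 0.056), and that in WKO ended without WT young 2 or 3 or any WKO young library (adjusted p = 0.0537 to 0.142). Scaled to basal keratinocyte markers, the log2 fold changes were -4.41 for Msx2 in WKO and -4.99, -4.78 and -5.18 for Msx2, Hoxc13 and Dlx3 in DKO. That scaling moved the median of all genes by -2.76 in WKO and -2.45 in DKO. More negative values were thus set by the scaling and add nothing to the calls.

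**Figure D3:**
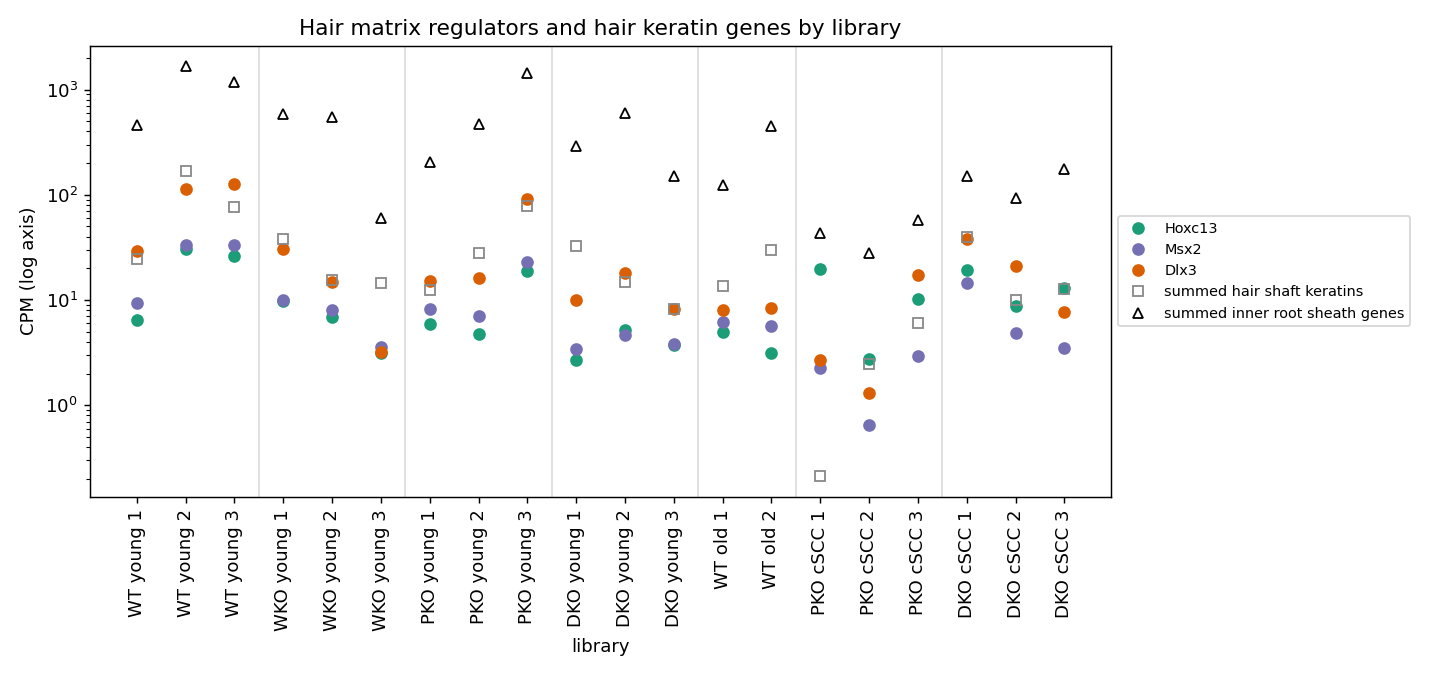
Hoxc13, Msx2 and Dlx3 (filled), summed hair shaft keratins (squares) and summed inner root sheath genes (triangles) in CPM on a log axis, for each of 20 libraries. WT young 2, WT young 3 and the library labelled PKO young 3 carry the highest Dlx3 (91.8 to 126 CPM) together with the highest inner root sheath sums (1174 to 1658).

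DKO and PKO young epidermis differed by no called gene in edgeR (0 of 10 members, 0% of 16627 genes), while 1 member and 2742 genes had an unadjusted p under 0.05 and DESeq2 called 0 members and 328 genes. Msx2 had the smallest p of the members, with a log2 fold change of -1.61 ± 0.58 (edgeR adjusted p = 0.274), followed by Foxn1 with 0.86 ± 0.40 (adjusted p = 0.312). Without the library labelled PKO young 3 the log2 fold change of Msx2 was -0.93. Old WT epidermis was low in the 3 genes too, at 4.99 and 3.14 CPM for Hoxc13, 6.15 and 5.69 for Msx2 and 7.98 and 8.46 for Dlx3, all below the WT young libraries.

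In carcinomas the 3 genes parted. Msx2 was 2.26, 0.649 and 2.97 CPM in PKO cSCC, below every PKO young library. It was 14.6, 4.805 and, in the library labelled DKO cSCC 3, 3.51 in DKO cSCC, above all PKO tumours. Dlx3 was 2.69, 1.30 and 17.2 CPM in PKO cSCC and 38.0, 21.0 and, in the library labelled DKO cSCC 3, 7.73 in DKO cSCC. Hoxc13 was 19.9, 2.77 and 10.3 CPM in PKO cSCC and 19.3, 8.71 and, in the library labelled DKO cSCC 3, 12.9 in DKO cSCC. The tumour groups overlapped for Dlx3 and Hoxc13. PKO cSCC 1 joined a high Hoxc13 to a hair shaft keratin sum of 0.212 CPM, with 11 of 14 of these keratins at 0.

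In PKO cSCC against PKO young epidermis edgeR called 2 of the 10 members, where 11.5% of 18164 genes were called. Msx2 fell by 2.64 ± 0.69 on the log2 scale (6.21-fold lower; adjusted p = 0.0248), and Gata3 was the other. The Msx2 call ended without PKO cSCC 1 or 2 or the library labelled PKO young 3 (adjusted p = 0.0596 to 0.0936). In those fits 1221 to 2041 genes were called in all, against 2087 with every library. A fit without the libraries labelled PKO young 2 and 3, which partly kept Trp53, left PKO young 1 as the only library of its group. It therefore cannot decide whether either call depends on the kept Trp53 RNA. Inner root sheath genes fell with Msx2: 6 of the 8 tested were lower and none was higher, with a median log2 fold change of -5.82 against -0.02 over all genes.

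DKO against PKO cSCC gave 0 called members in edgeR, against 0.00605% of 16526 genes (1 gene). Of the members 1 (Msx2) had an unadjusted p under 0.05, as had 8.1% of all genes, and DESeq2 called none of the members and 1.21% of all genes. The fitted log2 fold change was positive for all 10 members, with a median of 1.04, where the median of all genes was -0.03 and 47.4% were positive. The lists differed in this. Of other stem cell niche genes 9 of 19 were positive (median -0.02), of other hair lineage regulators 16 of 24 (0.46) and of basal keratinocyte markers 3 of 6 (0.03). Several lists of other cell types and states leaned as the members did. Positive were 12 of 12 endothelial and mural markers (median 3.72), 12 of 12 T cell markers (1.98) and 7 of 7 inner root sheath genes (2.71). So were 4 of 4 mast cell markers (6.31) and 7 of 8 differentiated keratinocyte markers (1.92). No gene of these lists was called. The part of these cells in the members' values was not tested. The smallest p was that of Msx2, with 1.94 ± 0.75 (edgeR adjusted p = 0.608), which became 1.03 without DKO cSCC 1. The difference between the Wwox effect in cSCC and that in young epidermis, both on p53 deletion, was 3.58 ± 0.95 for Msx2 (adjusted p = 0.203) and 3.36 ± 1.38 for Dlx3 (adjusted p = 0.332). edgeR called 0 members and 0% of 18164 genes there, 3 members and 2296 genes had an unadjusted p under 0.05, and DESeq2 called 480 genes, Msx2 among them.

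Foxn1 and Gata3 had the closest profiles of all pairs of the 10 genes, with a root mean square difference of 0.49 in centred log2 CPM over the 20 libraries. The promoter windows of Foxn1 and Gata3 are shown because these genes moved together, and that of Msx2 because it was called in 3 comparisons, against 1 for Hoxc13 and for Dlx3. Each runs from 250 bases before to 50 after the start, 5′ to 3′, from RefSeq on GRCm38.p6, where 6 of the 10 genes matched an entry. Foxn1 is at chr11:78386559-78386858, Gata3 at chr2:9878551-9878850 and Msx2 at chr13:53472731-53473030, all on the minus strand. Capitals mark the homeodomain letters TAATTA.
Foxn1: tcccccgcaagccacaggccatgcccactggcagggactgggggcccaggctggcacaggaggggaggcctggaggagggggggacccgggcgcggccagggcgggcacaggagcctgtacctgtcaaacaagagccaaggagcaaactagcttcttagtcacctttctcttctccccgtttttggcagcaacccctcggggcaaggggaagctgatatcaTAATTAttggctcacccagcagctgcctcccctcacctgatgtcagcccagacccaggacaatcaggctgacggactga
Gata3: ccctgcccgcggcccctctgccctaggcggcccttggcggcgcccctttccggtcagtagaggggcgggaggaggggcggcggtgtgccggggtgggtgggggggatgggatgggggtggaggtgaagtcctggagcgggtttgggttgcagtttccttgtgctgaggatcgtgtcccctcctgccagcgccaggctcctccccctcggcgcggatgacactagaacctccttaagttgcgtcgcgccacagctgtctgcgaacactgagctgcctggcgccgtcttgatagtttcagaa
Msx2: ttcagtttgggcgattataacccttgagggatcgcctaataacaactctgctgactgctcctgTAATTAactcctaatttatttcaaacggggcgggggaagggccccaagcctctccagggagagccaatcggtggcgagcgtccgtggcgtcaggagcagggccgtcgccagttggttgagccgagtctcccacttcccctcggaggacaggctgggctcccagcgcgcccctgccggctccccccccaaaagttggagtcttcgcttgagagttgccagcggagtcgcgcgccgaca
Of 4 motifs searched on both strands (AACCNGTT of Grainyhead-like factors, GATAA of GATA factors, TAATTA of homeodomain factors and CTTTGA of LEF/TCF factors), TAATTA lay in the Foxn1 window at base 222 and in the Msx2 window at base 64, and 5.29% of 32851 such windows hold it. The Gata3 window held none of the 4. GATAA lay in the Cd34 window at base 254, and 25.4% of windows hold it. AACCNGTT is in 2.09% of windows and CTTTGA in 16%, and neither lay in the 6 windows.

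Gata3, which specifies the inner root sheath and serves the epidermal barrier, was called in 4 comparisons. It was 69.2, 127 and 133 CPM in WT young and 384, 436 and 452 in WKO young. It was 440, 425 and, in the library labelled DKO young 3, 313 in DKO young, and 296, 348 and 135 in PKO young, where the library labelled PKO young 3 was close to WT young. WT young lay below all WKO, PKO and DKO libraries. Gata3 rose by a log2 fold change of 1.93 ± 0.36 in WKO (3.82-fold; edgeR adjusted p = 0.0126) and of 1.86 ± 0.36 in DKO (3.63-fold; adjusted p = 0.00803). Both calls held in each fit that left out a library (adjusted p up to 0.0447 and 0.0331). In PKO the log2 fold change was 1.23 ± 0.36 (edgeR adjusted p = 0.0766), and without the library labelled PKO young 3 it was called at 1.59 (adjusted p = 0.00424). Per basal keratinocyte RNA the direction was the opposite, with log2 fold changes of -0.78 in WKO, -0.77 in PKO and -0.50 in DKO, none of them called. That scaling moved the median of all genes by -2.76, -1.61 and -2.45. Among young libraries, WT young and the library labelled PKO young 3 had the highest T cell sums and the lowest Gata3.

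Foxn1, which drives differentiation of the hair shaft and of keratinocytes leaving the basal layer, was 3.47, 9.65 and 9.94 CPM in WT young. It was 21.3, 18.3 and 17.5 CPM in WKO young, 9.30, 16.4 and 9.78 in PKO young, and 25.3, 24.1 and, in the library labelled DKO young 3, 13.1 in DKO young. WKO and DKO young lay above all WT young libraries, and PKO young overlapped. Foxn1 rose by a log2 fold change of 1.29 ± 0.41 in WKO (2.44-fold; edgeR adjusted p = 0.0472) and of 1.46 ± 0.41 in DKO (2.75-fold; adjusted p = 0.0261). The WKO call ended without any of the 3 WT young or 3 WKO young libraries (adjusted p = 0.0589 to 0.102), and the DKO call ended without DKO young 1 or 2 (adjusted p = 0.0915 and 0.072). All genes called in those fits were 893 to 3513 in WKO, against 3563 with every library. In DKO they were 1609 and 2959, against 4629. Scaled to basal keratinocyte markers the log2 fold changes were -1.34 in WKO and -0.86 in DKO, where the median of all genes moved by -2.76 and -2.45. The 8 markers of differentiated keratinocytes had sums between 487 and 1078 CPM in WT young, against 7403 to 15344 in WKO and DKO young. Their part in the Foxn1 and Gata3 levels was not tested.

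**Figure D4:**
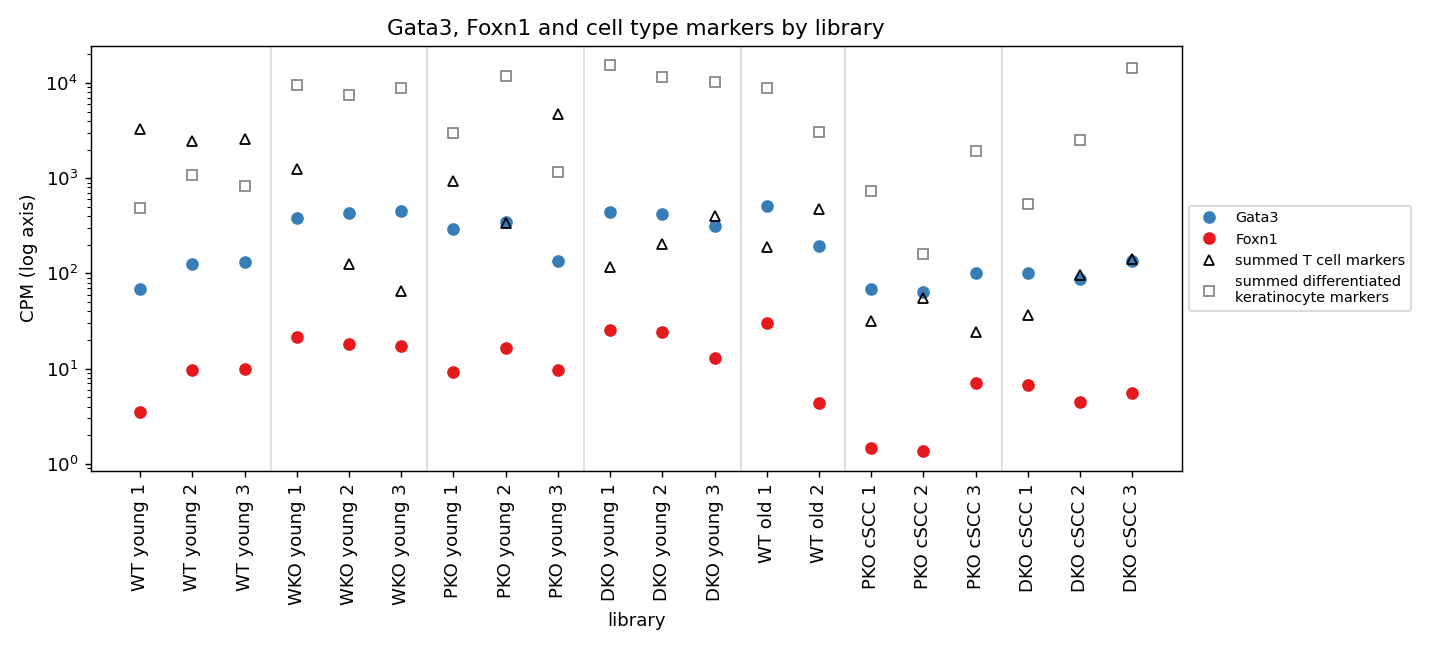
Gata3 and Foxn1 (filled circles) with summed T cell (triangles) and differentiated keratinocyte markers (squares) in CPM on a log axis, for each of 20 libraries. Gata3 is 313 to 452 CPM in WKO and DKO young and 63.2 to 134 in the tumours, and the T cell sums exceed Gata3 most in WT young and the library labelled PKO young 3; per basal keratinocyte RNA the young difference turns around.

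Gata3 was lower in carcinomas of both genotypes. It was 68.1, 63.2 and 102 CPM in PKO cSCC and 101, 86.5 and, in the library labelled DKO cSCC 3, 134 in DKO cSCC. Every tumour lay below every young epidermis library of its own genotype. Gata3 fell by 1.73 ± 0.39 on the log2 scale against PKO young (3.31-fold lower; edgeR adjusted p = 0.0136) and by 1.89 ± 0.39 against DKO young (3.69-fold lower; adjusted p = 0.011). The PKO call held in each fit that left out a library, up to an adjusted p of 0.0499. It was the only call among the 10 members in DKO cSCC against DKO young, where 7.3% of 18164 genes were called. That call ended without DKO cSCC 2 (adjusted p = 0.0543) or DKO young 1 (adjusted p = 0.052), and held without the libraries labelled DKO young 3 and DKO cSCC 3 together (-2.11, adjusted p = 0.024). All genes called were 478 without DKO cSCC 2 and 265 without DKO young 1, against 1326 with every library. The T cell sums were 24.1 to 142 CPM in the tumours, 117 to 397 in DKO young and 338 to 4674 in PKO young. The differentiated keratinocyte sums were 732, 161 and 1915 CPM in PKO cSCC, against 2956, 11766 and 1163 in PKO young, where 2 of 8 markers were called lower (median log2 fold change -1.65). They were 536, 2533 and, in the library labelled DKO cSCC 3, 14360 CPM in DKO cSCC, against 10338 to 15344 in DKO young, where none was called (median -1.05). The part of either cell state in the lower Gata3 was not tested.

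Against old WT, Gata3 had the smallest p in both tumour comparisons, with -2.11 ± 0.44 in PKO cSCC (edgeR adjusted p = 0.0596) and -1.70 ± 0.43 in DKO cSCC (adjusted p = 0.213). Old WT held 515 and 194 CPM, above all tumours. For PKO cSCC against old WT edgeR called 0 of 10 members and 0.0121% of 16526 genes, 2 members and 27.7% of genes had an unadjusted p under 0.05, and DESeq2 called Gata3 and 18.3% of genes. For DKO cSCC against old WT it called 0 of 10 members and 0% of genes, 1 member and 2402 genes had an unadjusted p under 0.05, and DESeq2 called 841 genes, Gata3 among them. The log2 fold change without old WT 1 was -1.22 in PKO cSCC and -0.81 in DKO cSCC. Foxn1 was 1.48, 1.36 and 7.04 CPM in PKO cSCC, 6.67, 4.50 and, in the library labelled DKO cSCC 3, 5.57 in DKO cSCC, and 29.9 and 4.34 in old WT. Its log2 fold change in PKO cSCC against old WT was -2.29 ± 0.93 (edgeR adjusted p = 0.162), and it was -0.29 without old WT 1. Hoxc13 was the second member by p in DKO cSCC against old WT, with 1.79 ± 0.79 (adjusted p = 0.349). The 2 tumour comparisons share the old WT libraries.

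In old against young WT epidermis edgeR called 0 of the 10 members, where 1.99% of 17622 genes were called. Gata3 had a log2 fold change of 1.71 ± 0.45 (edgeR adjusted p = 0.0635) and Sox9 of 1.52 ± 0.43 (adjusted p = 0.0791). Without old WT 1 the value of Gata3 was 0.85. At an unadjusted p under 0.05 there were 5 members (Sox9, Hoxc13, Msx2, Dlx3 and Gata3), and DESeq2 called these 5, where 22.9% of all genes had such a p and DESeq2 called 12.4%. The basal keratinocyte sum was 6920 CPM in old WT 1 and 2133 in old WT 2, the latter close to the 1228 to 2067 of WT young. The T cell sum was 190.3 and 477 CPM in old WT, against 2474 to 3270.2 in WT young.

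**Figure D5:**
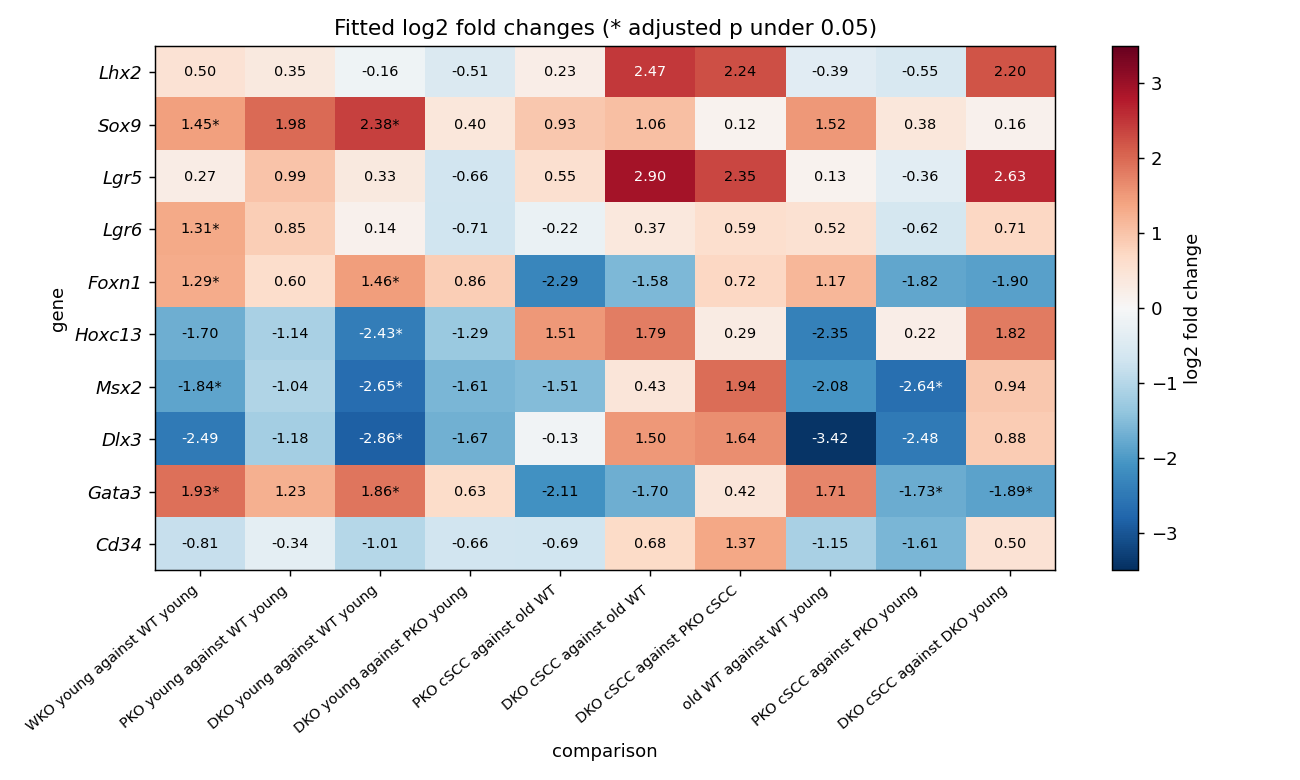
Fitted log2 fold change of each of the 10 genes (rows) in 10 comparisons (columns), with red for higher and blue for lower in the first group and an asterisk for an adjusted p under 0.05. Asterisks lie in WKO young and DKO young against WT young and in the tumours against young epidermis; scaled to basal keratinocyte markers the positive values of Sox9, Lgr6, Foxn1 and Gata3 that carry an asterisk are negative, that of Sox9 in DKO being near 0.

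Other genes of the same biology were described from 2 lists, 19 stem cell niche genes and 24 hair lineage regulators. In WKO against WT young, 7 niche genes were called higher and 1 lower (13.1% and 8.34% of all genes), with Krt15, a bulge and basal keratin, at a log2 fold change of 3.10, the homeobox gene Barx2 at 2.03 and Lrig1, an isthmus stem cell marker, at 1.12. In the same comparison 7 lineage regulators were called higher and 2 lower, with the Wnt ligand Wnt10a at 2.22, the vitamin D receptor Vdr at 1.58 and the repressor Prdm1 at -3.34. In DKO against WT young 7 niche genes were higher and 3 lower (15.8% and 12.1% of all genes), led by Plet1 at 5.09, and 8 lineage regulators were higher and 5 lower, with Ovol1 at 5.24 and Dlx5 at 3.46. The median log2 fold changes of the niche list were 0.48 in WKO and 0.51 in DKO, against -0.03 and -0.04 over all genes, and those of the lineage list were 0.34 and -0.07. Like Sox9, these values are relative to libraries whose basal keratinocyte sums differ. In PKO cSCC against PKO young, where 5.33% of all genes were higher and 6.16% lower, 1 niche gene was higher and 3 were lower, with Id2 at -2.37, the Wnt target Axin2 at -1.68 and Fgf18 at -3.70. There 4 lineage regulators were lower and 1 was higher, with Wnt10b at -2.96, the signalling ligand Shh at -5.45 and the bone morphogenetic protein antagonist Sostdc1 at 2.33. In DKO cSCC against DKO young, where 3.27% of all genes were higher and 4.03% lower, 2 niche genes were higher and 1 lower, with Tbx1 at 2.44, Dkk3 at 1.70 and Plet1 at -2.69, and 1 lineage regulator, Ovol1 at -4.06, was lower.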

How the data were processed

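The values deposited by the authors are estimated counts (expected counts), already whole numbers, for 51123 gene rows in 20 libraries. A stranded low-input total RNA kit was used on 5 ng of RNA, per the labels' protocols. The submitters' processing notes list the build mm39 and the tools Salmon 0.13.1, DESeq2 1.28.1, Trim Galore 0.4.1 and FastQC 0.11.5. Their order, the annotation release and any use of molecular identifiers are not given in the sources used here. Symbols were found for 48246 rows in GENCODE M21, which served for names only.

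From the deposited counts, edgeR 4.0.16 (R 4.3.3; limma 3.58.1) was run using TMM, the default filterByExpr filter and quasi-likelihood F tests, adjusted over all tested genes by Benjamini-Hochberg at 0.05. Young comparisons shared a fit of 12 libraries, tumour comparisons 1 of 8 with old WT, old against young WT 1 of 14, and comparisons across tissues 1 of 20. Standard errors were derived from the fold change and the F statistic, and the steps were tested on simulated data. The labels call samples of a group biological replicates. Library totals of 11930153 to 17199262 counts limit the precision of low levels.

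All 10 genes were named; log2 fold changes are given for those called, otherwise for the 2 with the smallest p in a comparison, and of each list for up to 3 others with the smallest p. Likeness used log2 of CPM plus 0.5. The genes and lists were chosen with earlier results of these data known. Alternatives were other scalings, no filter, DESeq2 1.42.0, a replicate block, all libraries in the fit, a T cell marker score as covariate and libraries left out. Scaling to basal keratinocyte markers and leaving out the libraries labelled DKO young 3 and DKO cSCC 3 together were added after seeing the data.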

Additional observations from a re-analysis of the deposited data

How the results depend on the processing

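Counts of called members moved with the processing, and the causes were not tested beyond what each setting changes by construction. For WKO against WT young (5 called) the count was 3 with RLE (3498 of 16627 genes called) or TMMwsp scaling (3464). It was 1 with library totals (2213) or all 20 libraries in the fit (2199 of 18164). It was 0 with the T cell score (0 genes) and 8 with basal keratinocyte scaling, which called 14396 of 16627 genes. For PKO against WT young (0) it was 1 with library totals and 2 with no filter or with DESeq2. All genes called in PKO were 497 of 16627 with library totals, 990 of 34420 with no filter and 2327 of 16627 with DESeq2. For DKO against WT young (6) the count was 0 with the T cell score (1 of 16627 genes). For PKO cSCC against old WT (0) it was 2 with no filter (2285 of 33042 genes) or all 20 libraries (3876 of 18164) and 1 with DESeq2 (3031 of 16526). For DKO cSCC against old WT (0) it was 2 with no filter (853 of 33042) and 1 with DESeq2 (841 of 16526) or all 20 libraries (788 of 18164). For old against young WT (0) it was 4 with no filter (1068 of 35828 genes) and 5 with DESeq2 (2186 of 17622). For PKO cSCC against PKO young (2) it was 4 with DESeq2, and for DKO cSCC against DKO young (1) it was 3 with DESeq2. Of 18164 genes, DESeq2 called 3440 in PKO cSCC against PKO young and 2716 in DKO cSCC against DKO young. DESeq2 called 1 member in each difference of differences (0), with 480 of 18164 genes for cSCC against young and 1326 of 16627 within young epidermis. With a library left out, the counts ranged from 1 to 3 for WKO against WT young, 0 to 3 for PKO, 2 to 6 for DKO, 1 to 4 for PKO cSCC against PKO young, 0 to 1 for DKO cSCC against DKO young and for the Wwox effect in cSCC against young, 0 to 2 for that with and without p53 deletion, and stayed at 0 for the other 5 comparisons. All genes called in those fits ranged from 893 to 3513 for WKO, 1 to 2998 for PKO and 1609 to 4045 for DKO against WT young. They ranged from 1144 to 2041 for PKO cSCC and 265 to 1800 for DKO cSCC against young epidermis of the same genotype. For the Wwox effect they ranged from 0 to 11 in cSCC against young, and from 0 to 1199 with and without p53 deletion. Scaling to basal keratinocyte markers gave values below 0 for Sox9 (-1.34), Foxn1 (-1.34), Gata3 (-0.78) and Lgr6 (-1.52) in WKO, Sox9 (-0.13) and Gata3 (-0.77) in PKO, and Sox9 (-0.0020), Foxn1 (-0.86) and Gata3 (-0.50) in DKO, with edgeR adjusted p = 0.84 and 0.997 for Sox9 in PKO and DKO. Library totals in place of TMM moved the median of all genes by -0.42 in DKO against WT young. Same-numbered libraries of different groups showed no common deviation by median (r = -0.04 over 57 pairs, against 0.03 over 114 of different number). Single values spanned -0.62 to 0.47 and -0.57 to 0.66. With 2 or 3 libraries in a group this check cannot exclude a pairing, and the samples were treated as unpaired. With the replicate block, the count was 1 (Gata3) for WKO against WT young, where 2355 of 16627 genes were called. Groups of 2 or 3 libraries limit every test here, and levels near 1 CPM rest on few counts.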

Other observations

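The genes whose profiles lay nearest to the remaining members are given as values, by the same centred log2 CPM over 20 libraries. For Sox9 they were Barx2 (0.42) and Vwa2 (0.43), for Lgr6 Sema3e (0.51) and Lamb2 (0.63), and for Foxn1 Tnfrsf19 (0.46) and Grhl1 (0.49), a Grainyhead-like factor. For Gata3 they were Sytl1 and Foxn3 (both 0.32), the closest of any member. For Hoxc13 they were Slc39a10 (0.63) and Lmnb1 (0.64), for Msx2 Padi3 (0.60), a peptidylarginine deiminase, and Wnt10b (0.62), and for Dlx3 Msx2 (0.66) and Padi3 (0.71). For Cd34 they were Adamtsl4 and Acvrl1 (both 0.61), the latter an endothelial receptor.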
